A study of Mus musculus with 8 samples.

Results

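A group of 10 genes of Wnt signalling was followed in cultured mouse neural stem and progenitor cells with and without Kat7, the gene of a MYST-family enzyme that acetylates histones. The 10 genes, taken by Entrez identifier from a given list of symbols, were the antagonists Notum, Sfrp1, Sfrp2, Dkk3 and Apcdd1, the feedback targets Axin2 and Nkd1, and the transcription factors Lef1, Tcf7l1 and Tcf7l2. All 10 had a row among the 27179 gene identifiers counted. RNA came from 8 neurosphere cultures (floating clusters grown from dividing neural precursors in proliferation medium), each from a separate C57BL/6 fetus at stage E14.5. In 4 cultures, Kat7 deleted, the genotype was Kat7lox/loxNesCreT/+, so that both copies of Kat7 could be cut by a Cre recombinase driven by Nestin sequences. The 4 Kat7 intact cultures were Kat7+/+NesCreT/+, so the Cre transgene was common to all 8 and Cre acts only in cells that have expressed it. The 3 litters behind each genotype were separate from those of the other, which means that genotype and litter cannot be told apart. Among the cultures, intact replicates 1 and 2 shared a litter, as did deleted replicates 3 and 4.

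Wnt proteins are secreted, lipid-modified signals. When a Wnt binds a Frizzled receptor with the co-receptor LRP5 or LRP6, the complex that marks beta-catenin for destruction is held back, and beta-catenin joins TCF/LEF proteins on DNA to switch target genes on. Antagonists limit the signal outside the cell, and some targets, such as Axin2, feed back to limit it inside. In the embryonic forebrain the pathway is known for patterning the dorsal midline and for sustaining the division of progenitors.

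Library totals ran from 10687817 to 22444359 counts. Levels are given in CPM, counts relative to library size after TMM scaling, on which 1 read was worth 0.0436 to 0.0918 CPM. Kat7 itself stood at 77.1 to 92.1 CPM in the intact libraries. In deleted replicates 1 to 4 it held 416, 4, 253 and 1 reads, or 31.4%, 0.437%, 16.5% and 0.104% of the intact mean, so deleted replicates 1 and 3 kept Kat7 RNA. The log2 fold change of Kat7 was -3.02 ± 1.10 (SE; edgeR adjusted p = 0.128), against -4.92 by limma-voom (adjusted p = 0.0426) and -8.51 without deleted replicates 1 and 3 (0.000113). The mitochondrial share of counts ranged over 18.95% to 23.5% in the intact cultures, and the deleted cultures had 29.9%, 18.95%, 17.1% and 34.4%. The progenitor markers Nes, Sox2, Vim, Sox9, Fabp7, Hes5, Msi1 and Pax6 summed to 5064 to 6117 CPM in intact and 3601 to 5765 CPM in deleted libraries, with 0 of 8 called by edgeR, DESeq2 or limma-voom and 0 at an unadjusted p under 0.05. In RNA of whole cultures fewer cells of a type and less RNA per cell cannot be told apart.

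The secreted antagonists moved in opposite directions in the Kat7 deleted cultures: Notum rose and Sfrp1 and Sfrp2 fell. Axin2 and Nkd1, the members listed as feedback targets, and the TCF/LEF factors Lef1, Tcf7l1 and Tcf7l2 were not called. Calls rest on edgeR's quasi-likelihood test of 4 libraries against 4, at an adjusted p (Benjamini-Hochberg, over all 13498 genes tested) under 0.05. Of the 10 genes 9 passed the filter on low counts, 3 were called, 1 higher and 2 lower, and 6 were not. Over all tested genes 7.90% were called, 5.10% higher and 2.80% lower. The same 3 members, and 26.2% of all tested genes, had an unadjusted p under 0.05. Sfrp1 and Sfrp2 passed the filter through their intact libraries, so the count over the 9 genes is given as a description.

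**Figure D1:**
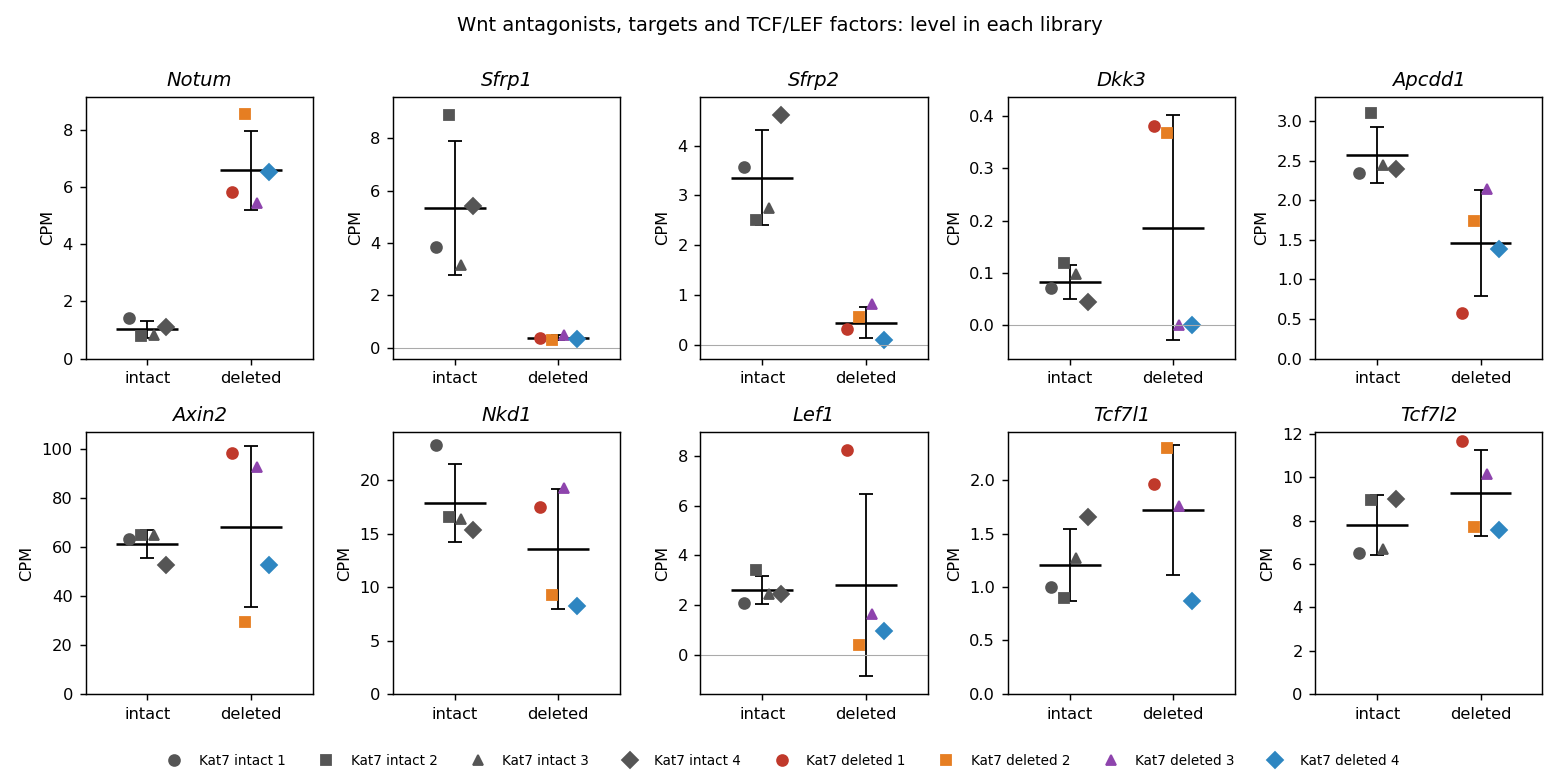
Level of each of the 10 genes in CPM (vertical axes, each from 0 or just below) in the 4 Kat7 intact (grey) and 4 Kat7 deleted (coloured) libraries, with the mean (line) and SD (bars, n = 4). Notum lay at 5.44 to 8.54 CPM in the deleted libraries and at 0.777 to 1.43 CPM in the intact ones, while Sfrp1 and Sfrp2 were below every intact library in all 4 deleted ones.

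Notum, an extracellular enzyme that inactivates Wnt proteins by removing their lipid, was the member that rose. It lies on chromosome 11 (120653788 to 120661193 in GRCm38.p6). The intact libraries 1 to 4 held 1.43, 0.777, 0.831 and 1.09 CPM and the deleted libraries 5.83, 8.54, 5.44 and 6.52 CPM. All 4 deleted libraries were above every intact one. Deleted replicates 2 and 4, the pair with next to no Kat7 reads, both stood above replicates 1 and 3. That order held for 1 of the 9 tested members and for 16.8% of all tested genes. The part of Kat7 in it was not tested. The mean went from 1.03 ± 0.296 to 6.58 ± 1.38 CPM (SD, n = 4), 6.38-fold, and the fitted log2 fold change was 2.67 ± 0.30 (edgeR adjusted p = 0.00483). These levels rest on 13 to 25 reads per intact library and 75 to 99 per deleted library.

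Sfrp1 and Sfrp2 encode secreted Frizzled-related proteins, which share the Wnt-binding domain of the receptors and can capture Wnts before a receptor does. Sfrp1 (chromosome 8, 23411383 to 23449632 in GRCm38.p6) stood at 3.85, 8.91, 3.18 and 5.41 CPM in the intact libraries and at 0.380, 0.275, 0.494 and 0.348 CPM in the deleted ones. No deleted library came near an intact one, and the 4 deleted libraries lay close together, between 5.16% and 9.26% of the intact mean. The mean fell 14.3-fold from 5.34 ± 2.56 to 0.374 ± 0.0911 CPM (SD, n = 4), and the fitted log2 fold change was -3.78 ± 0.43 (edgeR adjusted p = 0.00485). Deleted replicates 1 to 4 held 6, 3, 9 and 4 reads of Sfrp1, and the exact 95% Poisson interval of the lowest was 0.619 to 8.77 reads (counting error only).

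Sfrp2 (chromosome 3, 83765750 to 83774314 in GRCm38.p6) stood at 3.56, 2.51, 2.74 and 4.62 CPM in the intact libraries and at 0.317, 0.551, 0.824 and 0.0870 CPM in the deleted ones. Again no value overlapped, but the deleted libraries were spread 9.47-fold from lowest to highest, where those of Sfrp1 were spread 1.79-fold. Deleted replicates 1 to 4 held only 5, 6, 15 and 1 reads of Sfrp2. The exact 95% Poisson interval of the lowest was 0.0253 to 5.57 reads (counting error only), so counting error is part of that spread. The mean fell 7.56-fold from 3.36 ± 0.956 to 0.445 ± 0.316 CPM (SD, n = 4), and the fitted log2 fold change was -2.86 ± 0.52 (edgeR adjusted p = 0.0182). Leaving out any 1 of the intact libraries ended its call (adjusted p 0.0542 to 0.0681), as did the fit with litter as a random block (0.0526), though the value stayed between -2.27 and -3.39 in all 20 settings. Notum and Sfrp1 were called in all 20 settings, among them each library left out in turn, littermates summed and litter as a random block. Without deleted replicates 1 and 3, the pair with Kat7 reads, the adjusted p of Sfrp2 was 0.0141.

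Promoter sequence was read for the members that a RefSeq table of GRCm38.p6 lists, 6 genes with 10 start sites. Notum, Sfrp1, Dkk3 and Apcdd1 are not shown. Of the called members Sfrp2 had an entry, and the 250 bases before the start site in that table (chr3:83766071-83766320, plus strand) are printed with CpG pairs in capitals, since CpG content is what separates broad classes of promoter. That start site lies inside the gene's outer RefSeq range given above.
Sfrp2: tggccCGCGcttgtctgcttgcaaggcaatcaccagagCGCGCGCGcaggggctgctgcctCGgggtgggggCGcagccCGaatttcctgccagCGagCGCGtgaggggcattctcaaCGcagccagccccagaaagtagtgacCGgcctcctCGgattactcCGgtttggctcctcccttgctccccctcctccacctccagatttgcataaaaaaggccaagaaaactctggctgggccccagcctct
The window held 16 CpG pairs, and 25.4% of all 32851 listed promoters hold at least as many. It did not hold the TCF/LEF core motif as searched, CTTTGA or CTTTGT on either strand, which 13.8% and 16.5% of all promoters hold (27.6% hold either).

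Apcdd1, a membrane-bound Wnt inhibitor on chromosome 18, was not called. It stood at 2.35, 3.11, 2.45 and 2.40 CPM in the intact libraries and at 0.571, 1.74, 2.14 and 1.39 CPM in the deleted ones. All 4 deleted values were below the lowest intact value, though deleted replicate 3 only by a small margin. The log2 fold change was -0.81 ± 0.39, with a 95% interval of -1.70 to 0.07 (edgeR adjusted p = 0.222). With Notum, Sfrp1 and Sfrp2 it made 4 of the 9 tested genes whose genotypes did not overlap, 1 with the deleted libraries above and 3 below. The same held for 19.9% of all tested genes, 10.7% above and 9.21% below.

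Dkk3, a secreted glycoprotein of the Dickkopf family, was at the limit of detection and did not pass the filter. It had 1, 2, 2 and 1 reads in the intact libraries and 6, 4, 0 and 0 in the deleted ones. The 0 counts allow up to 3.69 reads by the exact 95% Poisson interval. By exact permutation of the genotypes over its log2 CPM (two-sided) p was 0.6, and 70 arrangements allow none smaller than 0.0286. No direction was read from these counts.

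**Figure D2:**
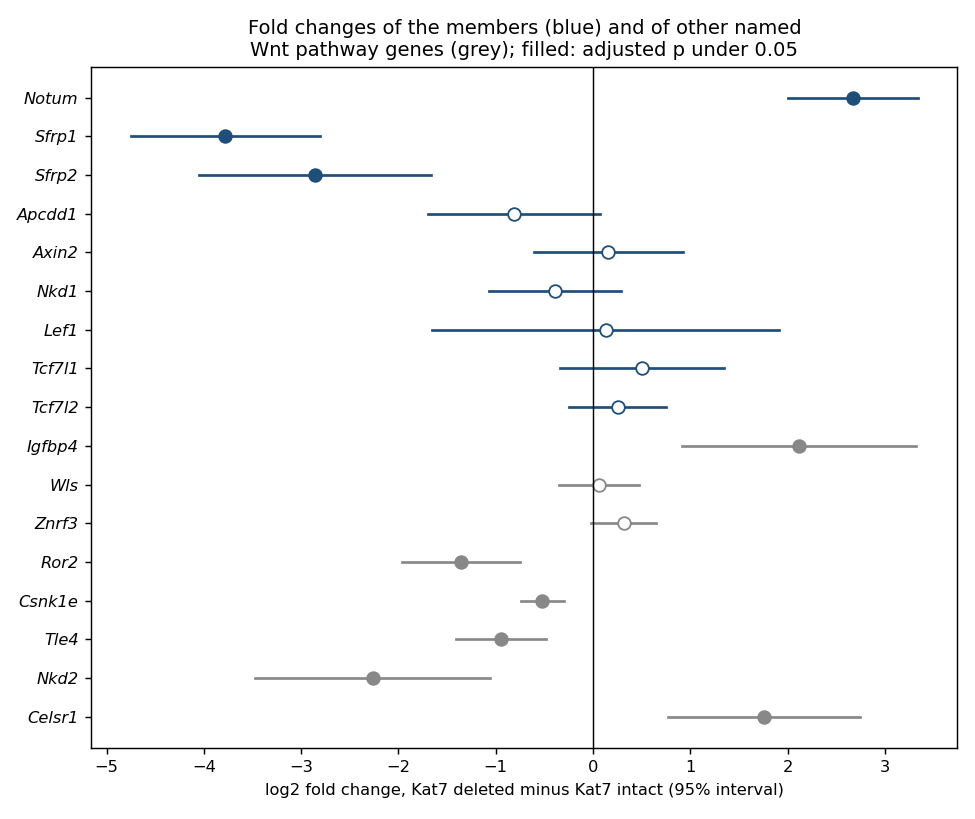
Log2 fold change, Kat7 deleted minus Kat7 intact (horizontal axis), with its 95% interval for the 9 tested members (blue) and 8 other named Wnt pathway genes (grey), filled where the edgeR adjusted p was under 0.05. Notum at 2.67 and Sfrp1 at -3.78 lie farthest from 0 on either side.

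Axin2 and Nkd1 are feedback targets. Axin2 encodes a scaffold of the beta-catenin destruction complex and is widely used as a readout of canonical Wnt signalling, and Nkd1 encodes a protein that binds Dishevelled and dampens the signal. Axin2 (chromosome 11, 108917828 to 108950783 in GRCm38.p6) held 63.2, 64.8, 64.8 and 52.8 CPM in the intact libraries and 98.3, 29.5, 92.9 and 52.5 CPM in the deleted ones. Deleted replicates 1 and 3 were above every intact library, and deleted replicates 2 and 4 were below every one, replicate 4 by less than 1 CPM. The mean was 61.4 ± 5.77 against 68.3 ± 33.0 CPM (SD, n = 4), and the log2 fold change was 0.16 ± 0.34 with a 95% interval of -0.61 to 0.92 (edgeR adjusted p = 0.803).

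The 250 bases before the start site listed for Axin2 (chr11:108920099-108920348, plus strand), which also lies inside the gene's outer range, are printed with CpG pairs in capitals, to set the member that was highest per length beside Sfrp2.
Axin2: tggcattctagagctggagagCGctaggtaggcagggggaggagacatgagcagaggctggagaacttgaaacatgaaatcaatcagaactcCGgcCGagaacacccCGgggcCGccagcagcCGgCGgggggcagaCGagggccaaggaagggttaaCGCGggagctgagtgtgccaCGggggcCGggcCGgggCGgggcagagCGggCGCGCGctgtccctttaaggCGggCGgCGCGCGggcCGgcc
This window held 24 CpG pairs, and 11.98% of the listed promoters hold at least as many. It had no match to CTTTGA or CTTTGT.

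Nkd1 held 23.3, 16.6, 16.4 and 15.4 CPM in the intact libraries and 17.5, 9.27, 19.3 and 8.26 CPM in the deleted ones. Deleted replicates 1 and 3 lay within the intact range and replicates 2 and 4 below it. The log2 fold change was -0.39 ± 0.30 with a 95% interval of -1.07 to 0.28 (edgeR adjusted p = 0.436). With deleted replicates 1 and 3 left out it was -1.03 (adjusted p = 0.0216), a choice made after their values were known.

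TCF/LEF proteins are the DNA-binding partners of beta-catenin. Tcf7l1 acts mostly as a repressor in stem cells, Lef1 mostly as an activator, and Tcf7l2 as either. Lef1 stood at 2.07, 3.41, 2.45 and 2.44 CPM in the intact libraries and at 8.24, 0.367, 1.65 and 0.957 CPM in the deleted ones. Deleted replicate 1 was above every intact library and the other 3 were below every one, so the deleted libraries were spread 22.45-fold against 1.65-fold in the intact. The log2 fold change of 0.13 ± 0.78 (95% interval -1.65 to 1.91, edgeR adjusted p = 0.934) turned to -1.34 without deleted replicate 1 (adjusted p = 0.102), and was -1.95 without deleted replicates 1 and 3 (0.0354).

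Of the 10 start sites 3 had a match to CTTTGA or CTTTGT, close to the 27.6% of all listed promoters that hold either. They were 1 of Lef1, 1 of Tcf7l1 and 1 of Tcf7l2. The Lef1 site was the start farthest into the gene, with 2 matches to CTTTGA and 1 to CTTTGT. The matches to CTTTGA lay on the opposite strand, 180 and 120 bases before that start. Their surroundings are printed for Lef1, the member that varied most between the deleted cultures, at chr3:131156102-131156131 and chr3:131156162-131156191 (plus strand), with the match in capitals.
Lef1 match 1: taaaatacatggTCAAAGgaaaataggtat
Lef1 match 2: cattgtctgttcTCAAAGtcaggtcttgca
A match describes letters in the window, and no binding was measured.

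Tcf7l1 stood at 0.998, 0.897, 1.27 and 1.66 CPM in the intact libraries and at 1.97, 2.30, 1.76 and 0.870 CPM in the deleted ones. Deleted replicates 1 to 3 were above every intact library and replicate 4 below. Its log2 fold change was 0.50 ± 0.37 (95% interval -0.34 to 1.34, edgeR adjusted p = 0.419). Tcf7l2 stood at 6.49, 8.97, 6.70 and 8.98 CPM against 11.7, 7.71, 10.2 and 7.57 CPM, so deleted replicates 1 and 3 were above the intact range and 2 and 4 within it. Its log2 fold change was 0.25 ± 0.22 (95% interval -0.24 to 0.75, edgeR adjusted p = 0.495). Reads of Tcf7l1 and Tcf7l2 could include some from predicted genes that overlap them (4 and 1 in the RefSeq table), since the strand setting of the counting was not given in the sources used here.

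**Figure D3:**
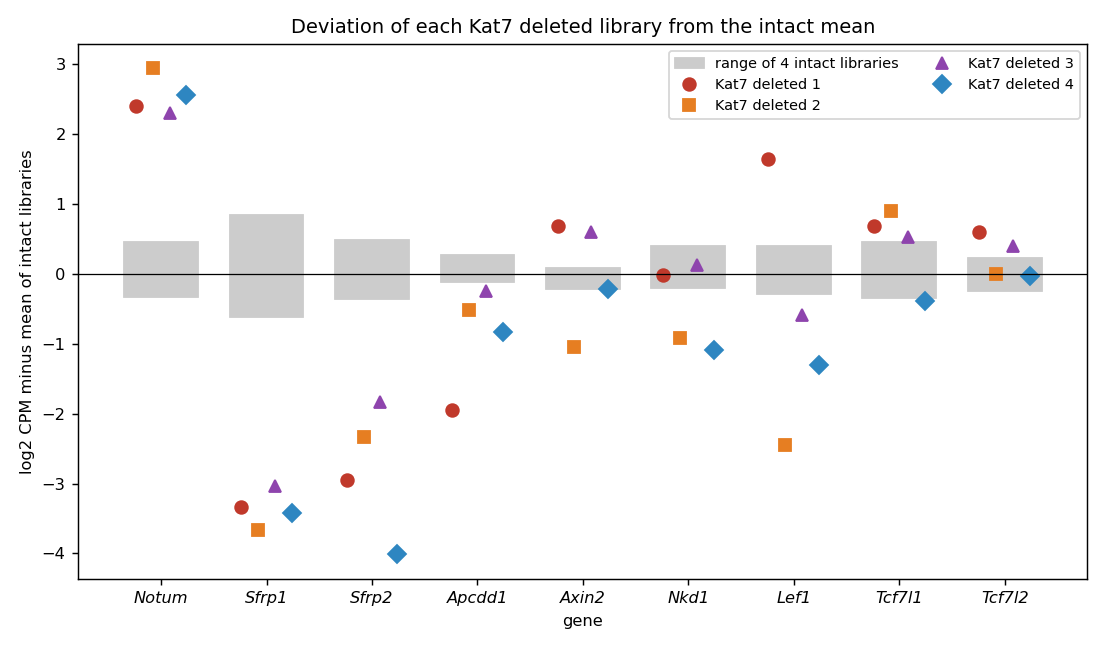
Deviation of each Kat7 deleted library (coloured points) from the mean of the intact libraries in log2 CPM (vertical axis) for the 9 tested genes, with the range of the 4 intact libraries as grey boxes. The 4 deleted libraries lay together for Notum (2.30 to 2.94) and Sfrp1 (-3.67 to -3.04), and on both sides of 0 for Axin2 and Lef1 (-2.45 to 1.65 for Lef1).

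The members thus differed in how alike the 4 deleted cultures were. For Notum, Sfrp1, Sfrp2 and Apcdd1 all 4 cultures lay on the same side of the intact mean, at 2.30 to 2.94, -3.67 to -3.04, -4.02 to -1.84 and -1.95 to -0.24 on the log2 CPM scale. The values of Sfrp2 rest on 5, 6, 15 and 1 reads in deleted replicates 1 to 4. For Axin2, Nkd1, Lef1, Tcf7l1 and Tcf7l2 the 4 cultures lay on both sides of the intact mean, for Tcf7l2 with replicates 2 and 4 almost at it. In 5 of the 9 genes (55.6%), Sfrp1, Axin2, Nkd1, Lef1 and Tcf7l2, deleted replicates 1 and 3 both stood above replicates 2 and 4. That order held for 18.9% of all tested genes, and the part of the retained Kat7 RNA in it was not tested. For Sfrp1 the order rested on 6, 3, 9 and 4 reads in deleted replicates 1 to 4, with overlapping Poisson intervals. The SD of log2 CPM was larger within the deleted than within the intact genotype for 7 of the 9 genes, against 86.6% of all tested genes. The exceptions were Notum and Sfrp1. At the few reads of Sfrp1 in the deleted libraries, the prior count of 2 narrows the spread of log2 CPM. The closeness of those 4 values of Sfrp1 therefore cannot be read as likeness of the cultures.

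Compared per length of gene, as RPKM (CPM per kilobase of gene length), Axin2 had the highest level of the 10 in intact cultures at 14.4 ± 1.36 RPKM and Nkd1 the next at 4.02 ± 0.815. Then came Tcf7l2 (1.71 RPKM), Sfrp2 (1.68), Sfrp1 (1.22), Lef1 (1.05) and Apcdd1 (0.921), whose neighbours overlapped in their ranges. Notum (0.510) and Tcf7l1 (0.433) overlapped each other below them, and Dkk3 was last (0.0247). In deleted cultures Axin2 was still first at 16.03 ± 7.74 RPKM, Notum had come second at 3.26 ± 0.683, overlapping Nkd1 (3.05), and Sfrp2 (0.222) and Sfrp1 (0.0856) stood just above Dkk3, again with overlapping neighbours. No neighbours after Axin2 were apart in the deleted cultures.

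A further 112 genes of the pathway, listed by role from general knowledge, had 6 called among 82 tested, 2 higher and 4 lower, or 7.32% against 7.90% of all tested genes. Their median log2 fold change was 0.16, against 0.05 over all tested genes. Without any 1 intact library 0 of them were called, and between 1.39% and 1.91% of all tested genes. Without deleted replicate 2 it was 15, beside 15.8% of all tested genes, and without deleted replicate 1 it was 10, beside 12.6%.

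Among 17 other antagonists 7 were tested and 1 was called. Igfbp4, a secreted binding protein of insulin-like growth factors that can also oppose Wnt receptors, rose from 105, 58.5, 164 and 49.8 CPM in the intact libraries to 369, 405, 713 and 149 CPM in the deleted ones. Deleted replicate 4 lay below intact replicate 3, so the genotypes overlapped. The log2 fold change was 2.12 ± 0.53 (edgeR adjusted p = 0.0471) and the call was kept in 9 of 20 settings, lost without any 1 intact library and without deleted replicate 1 or 3 (adjusted p up to 0.141), with litter as a random block (0.126) and with littermates summed (0.0786).

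On the side of the ligands, 7 of 19 Wnt genes were tested and 0 were called by edgeR, DESeq2 or limma-voom, with 0 at an unadjusted p under 0.05 and edgeR log2 fold changes from -0.66 to 1.30. A further 4, Wnt3a, Wnt8a, Wnt10a and Wnt10b, had 0 reads in every library. Wls, which carries Wnts to the cell surface, stood at 147 ± 3.24 and 153 ± 39.1 CPM (95% interval of the log2 fold change -0.35 to 0.48). None of the 4 R-spondin genes, whose products strengthen Wnt signals, passed the filter. Znrf3, a ligase that removes Frizzled receptors, stood at 41.2 ± 4.35 and 51.2 ± 8.39 CPM (edgeR adjusted p = 0.211).

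All 10 Frizzled genes, the Wnt receptors proper, were tested. By edgeR 0 were called, with 4 at an unadjusted p under 0.05, by DESeq2 3 were called and by limma-voom 1, all of them higher, where these tools called 9.71% and 4.38% of all tested genes higher. Of the 17 receptor and co-receptor genes 1 was called. Ror2, a receptor for Wnt5a-type signals that do not use beta-catenin, fell from 8.34, 8.43, 8.51 and 10.7 CPM to 3.87, 4.32, 3.84 and 2.00 CPM, with every deleted library below every intact one. Its log2 fold change was -1.36 ± 0.27 (edgeR adjusted p = 0.0225), and it lost its call without any 1 intact library (adjusted p up to 0.0774), with littermates summed (0.0662) and with the replicate block (0.0774).

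In the destruction complex and its partners 1 of 18 was called. Csnk1e, a casein kinase that phosphorylates pathway components, fell from 105 ± 2.95 to 72.9 ± 4.56 CPM, a log2 fold change of -0.52 ± 0.10 (edgeR adjusted p = 0.0186). The list's median log2 fold change was -0.07. Among 14 TCF cofactors 1 was called. Tle4, a Groucho-type corepressor that TCF proteins recruit, fell from 140, 178, 135 and 129 CPM to 59.7, 67.3, 108 and 67.3 CPM, without overlap, a log2 fold change of -0.95 ± 0.21 (edgeR adjusted p = 0.0313). Both genes lost their calls without any 1 intact library (adjusted p up to 0.0773 and 0.104), and Tle4 also without deleted replicate 4. With littermates summed the adjusted p was 0.0902 for Csnk1e and 0.0806 for Tle4, and with litter as a random block it was 0.0646 for Tle4.

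Of 7 other target genes 4 were tested and 1 was called. Nkd2, the relative of Nkd1, fell from 1.85, 3.29, 1.91 and 2.75 CPM to 0.380, 0.551, 0.933 and 0.0870 CPM, a log2 fold change of -2.27 ± 0.53 (edgeR adjusted p = 0.0391). The genotypes did not overlap, and the call was lost without any 1 intact library and without deleted replicate 1 (adjusted p up to 0.124), and with litter as a random block (0.104). Its deleted libraries held 6, 6, 17 and 1 reads, so that it passed the filter through the intact ones. Of 9 planar polarity genes, which act in the branch of the pathway that orients cells, 1 was called. Celsr1, an adhesion receptor, rose from 4.56, 4.84, 3.91 and 7.20 CPM to 20.2, 5.51, 17.1 and 26.9 CPM, with deleted replicate 2 inside the intact range. Its log2 fold change was 1.76 ± 0.43 (edgeR adjusted p = 0.045), and it kept its call in 6 of 20 settings, losing it when any library but deleted replicate 2 was left out (adjusted p up to 0.135), with litter as a random block (0.143) and with littermates summed (0.185).

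**Figure D4:**
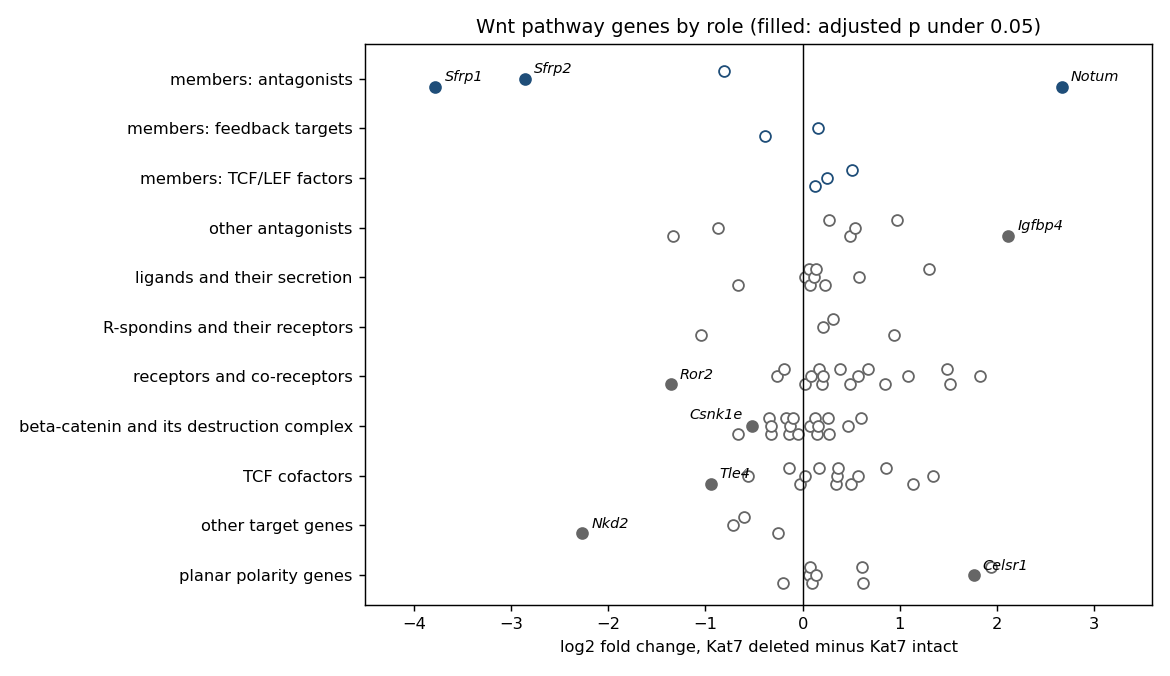
Log2 fold change, Kat7 deleted minus Kat7 intact (horizontal axis), of each tested Wnt pathway gene by role, members in blue and other genes in grey, filled and named where the edgeR adjusted p was under 0.05. The called antagonists lie on both sides of 0, from -3.78 for Sfrp1 to 2.67 for Notum.

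Markers of other cell types moved with the genotype in part. Of 10 mesenchymal or meningeal markers 4 were tested and 2 called higher (5.10% over all tested genes). The 10 summed to 24.4 to 38.4 CPM in intact libraries and to 70.8, 870, 77.0 and 277 CPM in deleted replicates 1 to 4. Lum, Pdgfrb and Col1a2 were under 1 CPM in every library. Foxc1, which was not called, was most of the sum in intact libraries (21.0 to 35.1 CPM) and in deleted replicates 1 and 3 (65.1 and 54.4 CPM). Col3a1 held 334 CPM in deleted replicate 2 and at most 0.359 CPM in every other library. Astrocyte markers, 8 of 8 tested and 3 called higher, summed to 667 to 1511 CPM in intact libraries and to 5204, 506, 1348 and 1079 CPM in the deleted ones. Most of that sum was Slc1a3 (means 818 and 1203 CPM). For 4 of the 8, Gfap, Aqp4, Aldoc and Fgfr3, every deleted library was above every intact one (10.7% over all tested genes), and for 4 the genotypes overlapped. Of 8 neuron markers 7 were tested and 2 called lower (2.80% over all tested genes), Neurod1 at a log2 fold change of -3.32 and Elavl3 at -2.27. The list went both ways: 5 of the 7 were fitted below 0 (45% over all tested genes) and 2 above. Those above were Snap25 at 2.10 and Dcx, the highest, at 4.70, neither of them called. The 8 neuron markers summed to 1028 to 1074 and 787 to 1222 CPM, most of it Map2 (means 1030.4 and 925 CPM). Oligodendrocyte markers, 5 of 8 tested and 1 called lower, summed to 1273 to 1655 and 430 to 1634 CPM. Cortical hem and choroid plexus markers, a source of Wnts in the embryo, summed to 1.67 to 3.36 and 1.84 to 2.75 CPM, with 6 of 8 under 1 CPM in every library and Wnt3a at 0. Endothelial markers, 2 of 6 tested and 1 called lower, summed to 3.27 to 6.94 and 1.65 to 15.7 CPM, and microglial markers to 2.59 to 3.53 and 0.609 to 2.28 CPM. Of the 6 microglial markers 1 was tested, and it was not called by edgeR, DESeq2 or limma-voom. Deleted replicate 1 had the highest sum of astrocyte markers and the highest Lef1 and Axin2, and deleted replicate 2 the highest sum of mesenchymal markers and the lowest Lef1 and Axin2. The part of these cells in the results was not tested. Without deleted replicate 1 the log2 fold change of Notum was 2.72 and without deleted replicate 2 it was 2.52, and for Sfrp1 the values were -3.77 and -3.67. These fits do not test the part of those cells. The astrocyte markers Gfap, Aqp4, Aldoc and Fgfr3 and the mesenchymal markers Acta2 and Thbs2 were above every intact library in all 4 deleted cultures. Some margins were small. Thbs2 stood at 2.66 CPM in deleted replicate 1 and 2.57 CPM in intact replicate 2. Gfap stood at 1.38 CPM in deleted replicate 2 and 1.12 CPM in intact replicate 3. For the other tested mesenchymal markers, Foxc1 and Tagln, the genotypes overlapped.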

How the data were processed

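RNA from 4 Kat7 deleted and 4 Kat7 intact neurosphere cultures was sequenced as 100 bp single-end reads from polyadenylated RNA, per the labels' protocols. The deposited values are raw read counts for 27179 Entrez identifiers, not normalized by the authors, with gene lengths. The build mm10, featureCounts and CASAVA 1.8.2 are named in the submitters' processing notes. Aligner and strandedness of the counting: not given in the sources used here. The 8 sample files held the same counts as the series table. Symbols came from a RefSeq table of GRCm38.p6 by exact identifier (25275 matched, 1904 did not).

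The test was that of edgeR 4.0.16 (R 4.3.3) with filterByExpr with a minimum count of 10, TMM scaling, robust dispersions and the quasi-likelihood F test, with no covariate, adjusted over 13498 genes. A standard error is the log2 fold change divided by the root of its F, and 95% intervals use that test's degrees of freedom. For log2 CPM the prior count was 2. The procedure was tested on simulated counts. Depth set 1 read at 0.0436 to 0.0918 CPM, and p-values measure the spread between cultures of separate fetuses, some of them littermates.

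The members and the pathway and marker lists were chosen with earlier results of these data known. The text names all members, Kat7, and from each other role list the called genes (up to 4 by p) or, where none was called, the most abundant gene. As alternatives, RLE and total count scaling, limma-voom (limma 3.58.1), DESeq2 1.42.0, litter as a random block, littermates summed, a replicate block, other filters and each library left out in turn were run. Leaving out deleted replicates 1 and 3, or 1 and 4, was added after seeing the data.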

Additional observations from a re-analysis of the deposited data

Results flagged for a closer look

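Among the 19 named genes, each genotype's 4 libraries were searched for a library far from the other 3, with a gap to the nearest that, as a share of the whole range, was above Dixon's 95% critical value. Of 38 groups 6 met this, and chance alone flags about 1 group in 20. In the intact libraries these were Apcdd1 at 3.11 CPM in replicate 2, Axin2 low at 52.8 CPM in replicate 4, Nkd1 at 23.3 CPM in replicate 1 and Ror2 at 10.7 CPM in replicate 4. In the deleted libraries they were Lef1 at 8.24 CPM in replicate 1 and Tle4 at 108 CPM in replicate 3.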

How the results depend on the processing

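Of the 9 tested members, Notum and Sfrp1 kept direction and call in all 20 settings, and Sfrp2 in 14. The count of genes called, 1066 over all genes, was 673 with total count scaling (309 higher and 364 lower, with the median log2 fold change of all tested genes at -0.09 in place of 0.05), 2200 with DESeq2, 414 with litter as a random block, 193 with littermates summed, 319 with a replicate block, 189 to 2182 with a library left out and 2299 without deleted replicates 1 and 3. The count of other pathway genes called, 6, became 13, 2, 1, 1, 0 to 15 and 18 in the same order from DESeq2 on. The count of members called, 3, became 5 without deleted replicates 1 and 3, a setting that called 16.7% of all tested genes against 7.90%. Directions turned for members that were not called: Axin2 to -0.0016 with the litter block, -0.071 and -0.027 without deleted replicate 1 or 3 (-0.071 to 0.41 over each library left out), -0.58 without both and -0.019 without deleted replicates 1 and 4, the libraries with most mitochondrial reads. Lef1 turned to -0.087 with total count scaling, -0.60 with limma-voom, -0.52 with the litter block, -0.66 with the replicate block, -1.34 without deleted replicate 1 (-1.34 to 0.49 over each library left out), -1.95 without 1 and 3 and -1.30 without 1 and 4. Tcf7l2 turned to -0.031 without deleted replicates 1 and 3. Wls, which is not a member and was not called, turned to -0.068 with total count scaling. It turned to -0.080 without deleted replicate 2 (-0.080 to 0.21 over each library left out). The cause of these changes was not tested. The labels do not pair equal replicate numbers. Deviations of same-numbered libraries correlated at 0.0961 to 0.331, 2 of 4 numbers matched best with their own, and under the replicate block 2 members were called. At these depths Dkk3 and 12 of 19 Wnt genes were too low to test.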

Other observations

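Some genes of the pathway that the text has not described, chosen here after their values were seen, differed widely between deleted cultures. Lgr5, a receptor for R-spondins, ranged from 9.57 to 15.0 CPM in intact cultures, while deleted replicates 1 to 4 had 7.80, 0.0918, 14.2 and 2.00 CPM (log2 fold change -1.05 ± 0.88, edgeR adjusted p = 0.484). Tnfrsf19, a target gene encoding a receptor of the tumour necrosis factor family, stood at 88.1 to 137 CPM and at 161, 5.05, 66.9 and 48.3 CPM (log2 fold change -0.60 ± 0.74, adjusted p = 0.641). Prickle2, of the planar polarity branch, stood at 6.89 to 8.20 CPM and at 26.8, 0.275, 4.61 and 0.522 CPM. Daam2, which links Dishevelled to the cytoskeleton, stood at 6.20 to 8.33 CPM and at 23.8, 0.184, 2.47 and 5.57 CPM. Deleted replicate 2 was the lowest deleted library in each of these 4 genes, which were picked with their values known. It was the lowest in 41.5% of the 82 other pathway genes tested and in 32.5% of all tested genes.

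Kremen1, a receptor that binds Dickkopf proteins, stood at 112 to 135 CPM in the intact libraries and at 112, 86.0, 379 and 116 CPM in the deleted ones, so that deleted replicate 3 alone was high. Fzd9, a Frizzled receptor, stood at 148, 29.8, 133 and 44.8 CPM in the intact libraries and at 298, 401, 318 and 239 CPM in the deleted ones, without overlap. Its log2 fold change was 1.82 ± 0.50 and it was not called (edgeR adjusted p = 0.060).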
